A study of Mus musculus with 8 samples.

Results

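Bicuculline blocks GABA-A receptors, the chloride channels that carry most fast inhibition in the brain, and so raises the firing of a neuronal network. The comparison described here is that of 30 min against 0 min of bicuculline in cultured mouse hippocampal neurons. It rests on 4 of the 8 arrays of a time course, namely the 2 arrays at 30 min and the 2 arrays at 0 min, and the other arrays hold 2 samples each at 180 and 300 min. Neurons of ICR mice, an outbred laboratory strain, were taken at embryonic day 17.5 (E17.5), kept in culture for 10 days and given 50 µM bicuculline. The 30 min group had the drug for 30 min and the 0 min group was collected at 0 min. The labels name no genetic change in either group and no culture that was handled for 30 min without the drug, so the drug and the handling cannot be told apart. RNA was hybridised to Affymetrix Mouse Gene ST 1.0 arrays, which carry probes along the whole transcript. Of 35399 rows of signals on a log2 scale, 21789 carried a single gene symbol, and each of 19938 genes was read from its brightest row, by the mean of all 8 arrays. A log2 change of 1 is a doubling. A gene was called where limma gave a Benjamini-Hochberg adjusted p under 0.05 over all 19938 genes, in a model with a mean for each time on all 8 arrays.

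When a neuron fires, calcium that enters through NMDA receptors and voltage-gated channels switches on kinases of the CaMK and MAP kinase pathways, which phosphorylate transcription factors already present, such as CREB, SRF and its Elk partners. Within minutes these factors start the immediate-early genes, which need no new protein for their transcription. Many immediate-early genes encode transcription factors, and the delayed genes that these factors act on follow later. The short messages of immediate-early genes are broken down fast, and several of their products dampen the signals that started them.

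Over all 35399 rows, the 2 arrays of 30 min correlated at r = 0.990 and those of 0 min at r = 0.988, and array medians ran from 4.84 to 4.88. The labels call the replicates biological and do not tell if each had its own dissection, so p-values cover only how far these arrays differ. With 2 arrays a time, the number of arrays limits every value. The labelled cells were checked against 52 marker genes of 9 cell classes, of which 49 were measured. The 6 general neuronal markers, Map2, Rbfox3, Tubb3, Snap25, Syt1 and Nefl, had mean signals of 8.05 to 10.8 at 30 min and 8.03 to 10.7 at 0 min. Markers of excitatory neurons (Slc17a7 among them) lay between 6.21 and 9.42 at 30 min and between 6.13 and 9.45 at 0 min. Those of GABA neurons (Gad1 and Sst among them) lay between 7.05 and 10.5 at 30 min and between 6.94 and 10.5 at 0 min. Microglial markers lay between 3.86 and 5.12 at 30 min and between 3.74 and 5.18 at 0 min, where the 95th percentile of 1015 olfactory receptor genes, taken as a mark of background, was 4.47. Astrocyte markers lay between 4.86 and 7.75 at 30 min and between 4.43 and 7.76 at 0 min. Of the 49 markers, 0 were called at 30 min, by limma over all genes, and 2 had an unadjusted p under 0.05, against 5.11% of all genes. In RNA of a whole culture, fewer cells of a type and less RNA per cell cannot be told apart.

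Genes of transcription factors induced by activity led the response at 30 min: Npas4, Fosb, Fos and Nr4a1 rose between 4.46-fold and 14.7-fold, and Arc, a gene of synaptic plasticity, rose 5.20-fold. In all, 16 genes were higher at 30 min and 3 were lower than at 0 min. These are 0.0802% and 0.015% of all genes, together 0.0953%, and the median change of all genes was 0.00 on the log2 scale. The fitted change was at least 2-fold for 14 of the 16 higher genes and 2 of the 3 lower genes. The higher genes were 9 genes of transcription factors and regulators, 3 antiproliferative or growth arrest genes, the synaptic gene Arc, 2 phosphatase genes and 1 microRNA gene. Without 0 min replicate 2 the counts were 12 and 0, without 30 min replicate 1 they were 13 and 0, without 30 min replicate 2 they were 20 and 1, and without 0 min replicate 1 they were 13 and 5. With every row of the table tested, rows without a symbol included and the spread of variances estimated from all of them, 11 genes were higher and 0 lower. The arrays of 30 min and 0 min did not overlap for any of the 19 called genes, which was so for 37.5% of all genes.

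**Figure D1:**
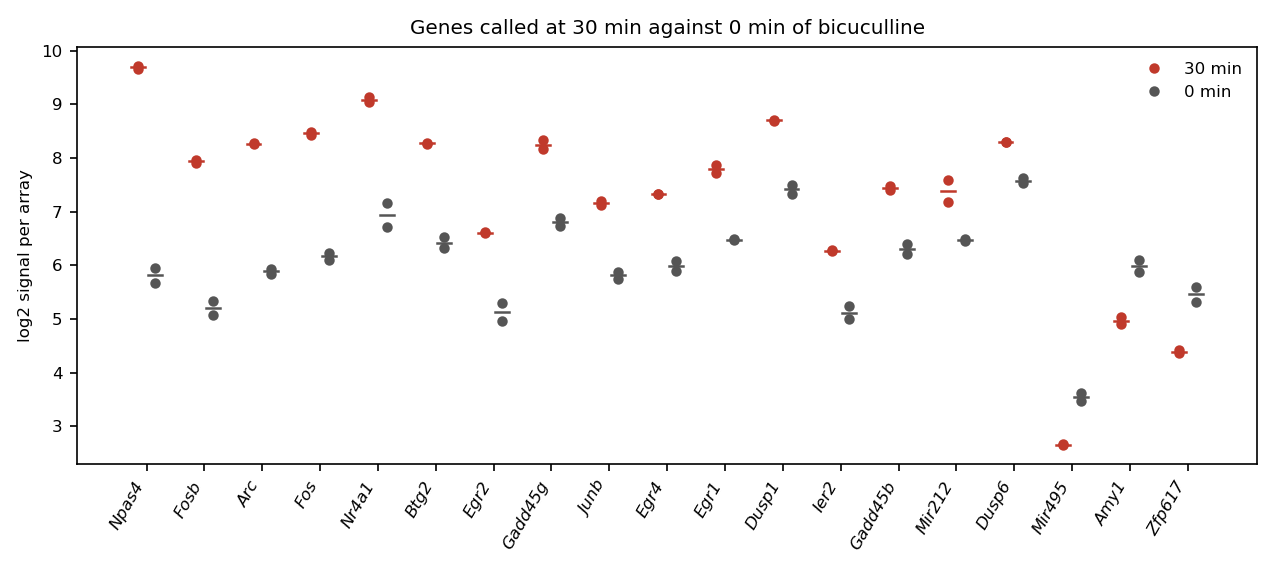
Log2 signal of each array (points) and the mean of the 2 arrays (bars) for the 19 genes called at 30 min, with 30 min left of 0 min, ordered by size of change. For 16 genes both 30 min arrays lie above both 0 min arrays, and for Mir495, Amy1 and Zfp617 both lie below.

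Npas4 encodes a bHLH-PAS transcription factor that is induced by calcium entry into neurons and regulates inhibitory synapses. Its signal was 9.67 and 9.72 at 30 min, against 5.67 and 5.96 at 0 min. That is 14.7 times as high, with a log2 change of 3.88 ± 0.14 (here and below ± is the moderated SE of limma; adjusted p = 2.67e-09), and it was larger than the change of any other gene tested. Of 8 measured genes that encode relatives of Npas4 or its Arnt partners, Npas4 alone was called, and the median change of the 8 was −0.01. Arnt2, the partner of Npas4 in neurons, had 8.45 and 8.49 at 30 min and 8.49 and 8.41 at 0 min.

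Fos, Fosb and Junb rose among the 11 genes of the Fos and Jun family, whose proteins pair to form the AP-1 factor. Fosb stood at 7.91 and 7.97 at 30 min and at 5.07 and 5.34 at 0 min, 6.67 times as high (2.74 ± 0.22, limma adjusted p = 2.25e-05). Fos stood at 8.43 and 8.49 at 30 min and at 6.11 and 6.23 at 0 min, a 4.88-fold increase (2.29 ± 0.15). Junb had 7.19 and 7.13 at 30 min against 5.88 and 5.75 at 0 min, a change of 1.35 ± 0.17. The replicates of each of these genes, which had been called on the same arrays, lay far closer together than the 2 times. Without 30 min replicate 1 or without 0 min replicate 2 the adjusted p of Junb was 0.0608 and 0.0713. Jun, with 8.36 and 8.24 at 30 min and 7.66 and 7.67 at 0 min, was the gene nearest to the threshold on its outer side (0.63 ± 0.12, adjusted p = 0.0805). It was called after quantile normalization (adjusted p = 0.047), with the trend and robust options of limma (0.0129) and with dim genes left out (0.0396). The other 7 members, among them Jund and Fosl2, had log2 changes of −0.10 to 0.31, and none was called. The median of the family was 0.13.

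The 4 Egr genes encode zinc finger transcription factors that bind GC-rich sites, and the 2 Nab genes encode corepressors that bind Egr proteins. Egr2, Egr4 and Egr1 rose. Egr2 had 6.61 and 6.59 at 30 min against 4.97 and 5.29 at 0 min (1.47 ± 0.13, adjusted p = 5.90e-05). Egr4 had 7.33 and 7.34 at 30 min against 6.08 and 5.89 at 0 min (1.35 ± 0.15). Egr1 had 7.72 and 7.87 at 30 min against 6.47 and 6.49 at 0 min (1.32 ± 0.13). In each of them both 30 min arrays lay above both 0 min arrays, on which they had been called. The arrays of the 2 times did not overlap for 37.5% of all genes. Egr3 was higher on both 30 min arrays, at 7.38 and 7.55 against 7.0 and 6.77, and did not pass (0.58 ± 0.15, adjusted p = 0.521). Neither Nab gene passed, with changes of −0.19 for Nab1 and 0.05 for Nab2.

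Nr4a1 encodes an orphan nuclear receptor that acts without a known hormone. It had 9.04 and 9.14 at 30 min against 6.71 and 7.16 at 0 min, a 4.46-fold increase (2.16 ± 0.15, adjusted p = 5.11e-06). Its paralogs Nr4a2 (0.55 ± 0.21) and Nr4a3 (0.14 ± 0.14) were not called. Ier2, an immediate-early gene of a nuclear regulator, had 6.28 and 6.26 at 30 min against 4.99 and 5.24 at 0 min (1.16 ± 0.12, adjusted p = 0.000366). It was the only one called of 21 measured genes of other rapid transcription regulators, whose median change was 0.15, with 17 above 0. Nfil3 (0.46 ± 0.14) and Ier5 (0.38 ± 0.12) had the next smallest p-values of that list and did not pass. Of 13 Krüppel-like factor genes none passed, and Klf4, the 1 with an unadjusted p under 0.05, came nearest, with 6.66 and 6.28 at 30 min against 5.57 and 5.85 at 0 min (0.76 ± 0.15, adjusted p = 0.146).

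Factors that are present before the stimulus, and on which activity-dependent transcription is known to depend, showed no call. Of 14 CREB and ATF genes and coactivators none passed in limma, 2 had an unadjusted p under 0.05, and their median change was 0.00. The smallest p of these was that of Atf3, itself an inducible member, at 5.48 and 5.38 at 30 min against 4.79 and 5.02 at 0 min (0.52 ± 0.19, adjusted p = 0.887). Of 9 measured genes of SRF, Elk and MEF2 factors none passed either (1 with an unadjusted p under 0.05), with a range of −0.16 to 0.26, the highest that of Srf.

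**Figure D2:**
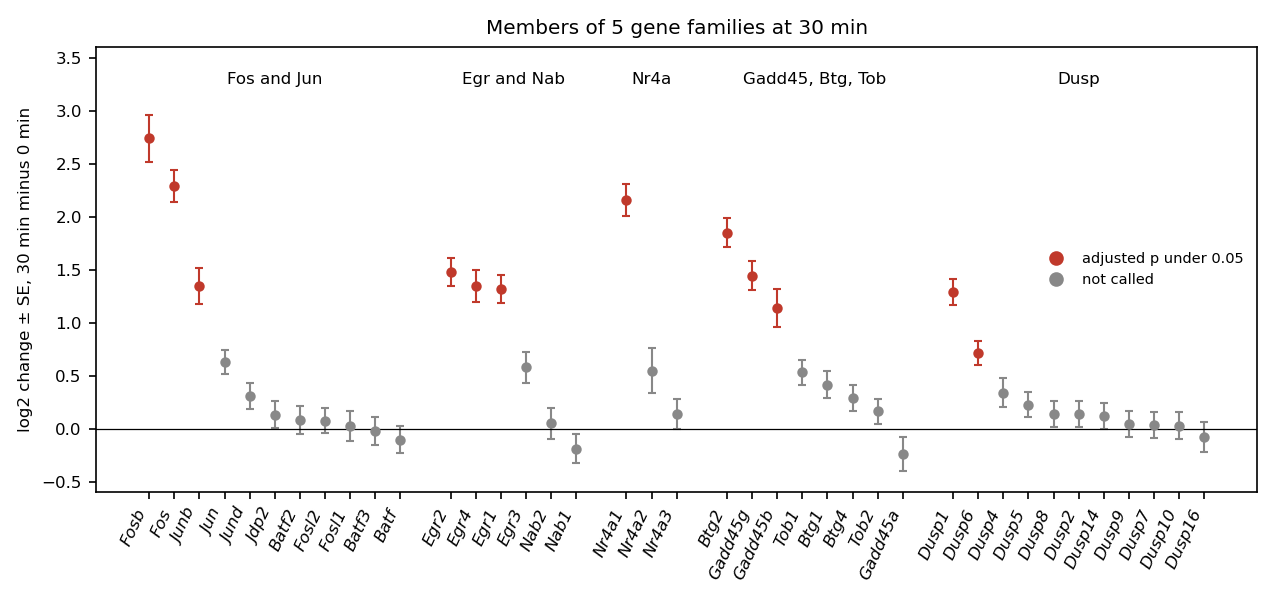
Log2 change from 0 to 30 min with its SE for every measured member of 5 gene families, called members in red. In each family 1 to 3 members stand above 0.7 while most others lie within 0.6 of 0.

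Btg2, Gadd45g and Gadd45b rose among 8 measured genes of the Gadd45, Btg and Tob families, whose median change was 0.47. Btg and Tob proteins restrain proliferation and recruit deadenylases that shorten the tails of messages. Btg2 had 8.28 and 8.27 at 30 min against 6.33 and 6.52 at 0 min, a 3.6-fold increase (1.85 ± 0.14, adjusted p = 7.49e-06). Gadd45 proteins are stress sensors that bind an upstream kinase of the p38 and JNK pathways. Gadd45g had 8.33 and 8.16 at 30 min against 6.73 and 6.88 at 0 min (1.44 ± 0.14), and Gadd45b had 7.47 and 7.41 against 6.21 and 6.41 (1.14 ± 0.18, adjusted p = 0.0198). The third Gadd45 gene, Gadd45a, had 5.91 on both 30 min arrays against 5.87 and 6.43 at 0 min. Tob1 was higher on both 30 min arrays, at 8.02 and 8.08 against 7.50 and 7.54, and did not pass (0.53 ± 0.12, adjusted p = 0.305). The call of Gadd45b was lost without any 1 of the 4 arrays, with adjusted p-values between 0.126 and 0.303.

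Arc encodes a protein of the postsynapse that drives the endocytosis of AMPA receptors. It had 8.28 and 8.27 at 30 min against 5.84 and 5.94 at 0 min (2.38 ± 0.13, adjusted p = 4.02e-07). Arc was the only gene called of 21 measured synaptic and signalling effectors that are known to be induced fast by activity. The median change of these effectors was 0.13, and 16 of 21 were above 0. The next by p-value were the protocadherin gene Pcdh8 (0.47 ± 0.13), Ccn1, a matrix signalling gene (0.41 ± 0.15), the kinase gene Sik1 (0.27 ± 0.12) and Ptgs2, which encodes an enzyme of prostaglandin synthesis (0.38 ± 0.17).

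Dusp1 and Dusp6 rose among 11 genes of dual-specificity phosphatases, which switch off MAP kinases, and the median of the 11 was 0.14. Dusp1 encodes a nuclear phosphatase of p38, JNK and ERK. It had 8.69 and 8.71 at 30 min against 7.33 and 7.49 at 0 min, a 2.45-fold increase (1.29 ± 0.12, adjusted p = 0.000127). Dusp6, whose product acts on ERK in the cytoplasm, had 8.29 and 8.30 at 30 min against 7.54 and 7.62 at 0 min (0.72 ± 0.12, adjusted p = 0.024). The 1.64-fold increase of Dusp6 was the smallest change called, and the call was lost without any 1 of the 4 arrays (adjusted p between 0.203 and 0.319) and when these 4 alone were fitted (0.0635). The other 9 had log2 changes of −0.08 to 0.34 and did not pass, Dusp4 being the highest. None of 10 Sprouty, Spred and related inhibitors of growth factor signalling passed, with a median of 0.01 and 1 unadjusted p under 0.05.

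Mir212, on chromosome 11, was the 1 microRNA gene that rose. It lies beside Mir132, and both are known to be transcribed under the control of CREB. Mir212 had 7.18 and 7.60 at 30 min against 6.49 and 6.46 at 0 min (0.91 ± 0.15, adjusted p = 0.0285). The 30 min arrays were apart by more than those of any other called gene at 30 min, and without 30 min replicate 2 the change was 0.70 and the adjusted p 0.353. The call was also lost without either 0 min array (0.242 and 0.322), without either 300 min array (0.0691) and when the 4 arrays alone were fitted (0.0875). Mir132 had 5.07 and 4.98 at 30 min against 4.6 and 4.75 at 0 min and was not called (0.35 ± 0.14, adjusted p = 0.924). A row of the array reads RNA of the microRNA gene, and precursor and mature RNA cannot be told apart. The mature products are shown because the 3′ arms of both genes share 1 seed, bases 2 to 8, here in capitals (RefSeq, GRCm38.p6, plus strand, chr11:75173443-75173464 and chr11:75173723-75173744). The 2 arms of Mir495, the microRNA gene that fell, follow (chr12:109718757-109718779 and chr12:109718795-109718816), and their seeds differ from it.
miR-212-3p: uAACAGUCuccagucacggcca
miR-132-3p: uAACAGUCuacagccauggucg
miR-495-5p: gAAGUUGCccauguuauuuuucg
miR-495-3p: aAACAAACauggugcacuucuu

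**Figure D3:**
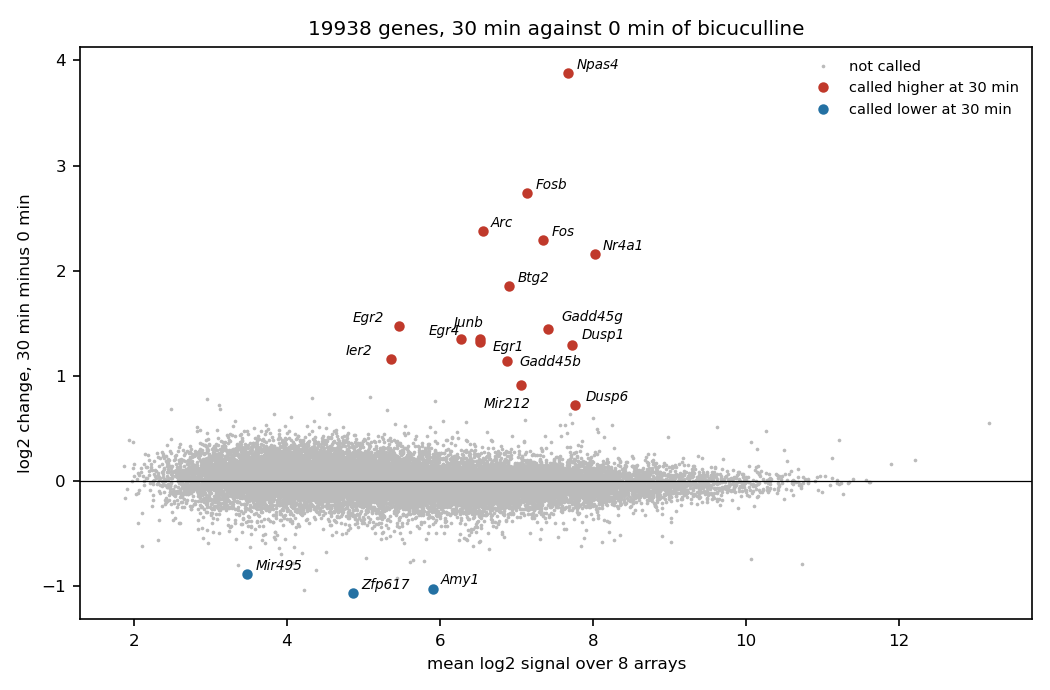
Log2 change from 0 to 30 min against the mean log2 signal over 8 arrays for all 19938 genes, with the called genes named. The 16 higher genes lie between 0.72 and 3.88, 14 of them above 1, where no gene that was not called lies, and the 3 lower genes lie between −1.07 and −0.89.

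The called genes were compared in what their loci share. Gene spans in RefSeq were short: the 16 higher genes spanned a median of 3.44 kb (0.091 to 20.9 kb), and 14 of 16 spanned less than 10 kb, against a median of 17.7 kb and 35.2% of all genes. For protein-coding genes alone, the medians were 3.49 kb for 15 called and 19.2 kb for all. Npas4 (19.1 kb) and Nr4a1 (20.9 kb) were the long ones. The 2 nearest measured genes on each side of the 19 called genes, 76 in all, held no called gene, by limma over all genes, and 5 had an unadjusted p under 0.05 (6.58%, against 5.11% of all genes).

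The promoter table of RefSeq (GRCm38.p6), with 250 bases before and 50 after the start of transcription, held 12 of the 16 higher genes. Each window was searched on both strands for the cAMP response element TGACGTCA, to which CREB binds, for its core TGACG, which the full element contains, for the AP-1 site TGANTCA, for the Egr site GCGNGGGCG, for the box TATAAA and for the CArG box of SRF. The core stood in 9 of the 12 genes (75.0%), against 28.0% of all 15563 genes with a promoter in the table and 33.8% of the 10743 of them whose mean signal was above the background mark. Those 9 were Npas4, Fos, Nr4a1, Btg2, Fosb, Egr2, Dusp1, Egr4 and Junb. The full element stood in Btg2 and Dusp1 (16.7%, against 2.72% of all). The Egr site stood in Nr4a1, Btg2, Fosb and Gadd45b (33.3%, against 9.33%), and the box TATAAA in Fos, Gadd45g, Junb and Gadd45b (33.3%, against 13.6%). The CArG box stood in Egr2 (8.33%, against 1.63%) and the AP-1 site in 0 of 12 (8.06% of all). A gene counted if any of its windows held a match, and Egr2 had several windows, against a median of 1 for all genes. These matches are descriptions of letters in these windows, and a window without a match says nothing of the factor. With 12 genes chosen by their change, no test was made.

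The bases −200 to −1 before the start are given for 7 genes that hold the core, since these are the letters behind the share above, and for Dusp6, which was called and holds none. Capitals mark the core or full element on either strand (TGACG or CGTCA), the CArG box of Egr2 and the box TATAAA of Fos. Positions are counted from the start, with −1 the base before it. In Npas4 2 cores on opposite strands begin at −179 and −169. Fos has cores at −129 and −66, the second upstream of TATAAA at −33. In Egr2 2 cores, at −111 and −55, flank the CArG box at −72.
Npas4 (chr19:4989972-4990171, minus strand): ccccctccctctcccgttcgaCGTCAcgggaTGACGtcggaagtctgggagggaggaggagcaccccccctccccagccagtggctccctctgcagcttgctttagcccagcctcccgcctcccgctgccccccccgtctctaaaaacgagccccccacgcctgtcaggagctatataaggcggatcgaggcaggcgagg
Fos (chr12:85473690-85473889, plus strand): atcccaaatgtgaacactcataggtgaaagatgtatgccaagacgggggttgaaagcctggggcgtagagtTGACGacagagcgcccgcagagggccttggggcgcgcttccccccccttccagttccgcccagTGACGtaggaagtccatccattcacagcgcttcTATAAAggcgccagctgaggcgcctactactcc
Fosb (chr7:19310046-19310245, minus strand): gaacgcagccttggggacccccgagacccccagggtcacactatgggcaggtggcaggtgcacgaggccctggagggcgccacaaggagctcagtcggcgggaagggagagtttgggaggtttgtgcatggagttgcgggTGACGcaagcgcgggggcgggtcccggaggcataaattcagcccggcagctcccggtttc
Nr4a1 (chr15:101266646-101266845, plus strand): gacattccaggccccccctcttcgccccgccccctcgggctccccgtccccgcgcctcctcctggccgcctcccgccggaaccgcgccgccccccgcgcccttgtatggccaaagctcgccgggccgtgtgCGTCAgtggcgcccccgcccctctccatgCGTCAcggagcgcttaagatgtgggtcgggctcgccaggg
Egr2 (chr10:67537669-67537868, plus strand): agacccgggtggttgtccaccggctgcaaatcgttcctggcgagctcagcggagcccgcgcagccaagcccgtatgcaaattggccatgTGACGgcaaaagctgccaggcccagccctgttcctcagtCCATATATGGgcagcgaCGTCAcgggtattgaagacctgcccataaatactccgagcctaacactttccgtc
Btg2 (chr1:134079156-134079355, minus strand): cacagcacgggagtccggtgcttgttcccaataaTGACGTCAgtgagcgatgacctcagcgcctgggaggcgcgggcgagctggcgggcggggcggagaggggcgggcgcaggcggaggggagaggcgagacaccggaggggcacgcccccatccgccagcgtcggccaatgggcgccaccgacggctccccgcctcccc
Dusp1 (chr17:26508473-26508672, minus strand): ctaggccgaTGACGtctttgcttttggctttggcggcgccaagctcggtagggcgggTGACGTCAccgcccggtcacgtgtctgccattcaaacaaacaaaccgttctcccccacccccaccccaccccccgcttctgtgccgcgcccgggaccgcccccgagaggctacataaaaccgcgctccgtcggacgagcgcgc
Dusp6 (chr10:99263031-99263230, plus strand): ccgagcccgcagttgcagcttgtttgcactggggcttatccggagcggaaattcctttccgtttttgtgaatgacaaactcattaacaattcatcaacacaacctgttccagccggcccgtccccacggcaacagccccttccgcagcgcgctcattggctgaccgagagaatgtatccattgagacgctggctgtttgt

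The 3 genes that fell belong to different families. Zfp617, a zinc finger gene, had 4.42 and 4.36 at 30 min against 5.32 and 5.60 at 0 min (log2 change −1.07 ± 0.16 SE, limma adjusted p = 0.0128). Both 30 min values lie under the background mark of 4.47, and with that mark in their place Zfp617 was at least 1.98-fold lower at 30 min. Amy1, which encodes a starch-cutting amylase, had 4.90 and 5.03 at 30 min against 5.88 and 6.11 at 0 min, a 2.04-fold decrease (−1.03 ± 0.14, adjusted p = 0.00417). Mir495 had 2.67 and 2.65 at 30 min against 3.48 and 3.61 at 0 min (−0.89 ± 0.12, adjusted p = 0.00389). All 4 values of Mir495 lie under the mark, so this is a difference between signals not above background and no fold is given. In each of them both 30 min arrays lay below both 0 min arrays, on which they had been called. The arrays of the 2 times did not overlap for 37.5% of all genes. None of the 3 kept the call without 0 min replicate 2 or without 30 min replicate 1. Zfp617 and Mir495 also lost it without 30 min replicate 2. With 1 array left out, the change ranged from −1.21 to −0.93 for Zfp617, from −1.14 to −0.91 for Amy1 and from −0.96 to −0.82 for Mir495. Rnpc3, a gene of the minor spliceosome, is the neighbour of Amy1 in RefSeq. It had 5.0 and 5.06 at 30 min against 5.84 and 5.77 at 0 min (−0.77 ± 0.16, adjusted p = 0.180), and passed when the 4 arrays alone were fitted (adjusted p = 0.0458). Rows that the annotation gives to several amylase genes did not pass. They lay under the background mark on all 4 arrays, so their changes are not given.

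Mir495 lies between Dlk1 and Dio3 on chromosome 12, an imprinted interval whose maternal copy gives the long noncoding RNAs Meg3 and Rian and a large array of microRNAs, processed from long transcripts. Of 47 genes measured from Dlk1 to Dio3, Mir495 was the 1 called (2.13%, against 0.015% of all genes called lower), 41 were below 0, and the median change was −0.23. Of 40 microRNA genes in it, 35 were below 0 with a median of −0.22, and of the 257 other microRNA genes on the array 110 were below 0 with a median of 0.03. An unadjusted p under 0.05 with a lower signal was found for 16 of these 40 and for 9 of the 257. The mean signal of 21 of the 40 was not above the background mark, and 20 of these 21 were below 0. Of the 19 above the mark, 15 were below 0, with a median of −0.15, and 6 had an unadjusted p under 0.05 with a lower signal. The interval was looked at after earlier results had shown Mir495 and its neighbours, and its genes share transcripts, so the counts are a description. Meg3 had 9.87 and 10.16 at 30 min against 10.96 and 10.66 at 0 min (−0.79 ± 0.17, adjusted p = 0.237). Rian had 4.78 and 4.94 at 30 min against 5.69 and 5.53 at 0 min (−0.75 ± 0.15, adjusted p = 0.129), and passed without either 300 min array (adjusted p = 0.0489). Mir154 had 3.23 and 3.55 at 30 min against 3.98 and 4.35 at 0 min, all under the background mark (adjusted p = 0.180). None of the 3 was called. The arrays of the 2 times did not overlap in any of them, as in 37.5% of all genes. Members above 0 included Mir673 (0.51 ± 0.14, adjusted p = 0.631).

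**Figure D4:**
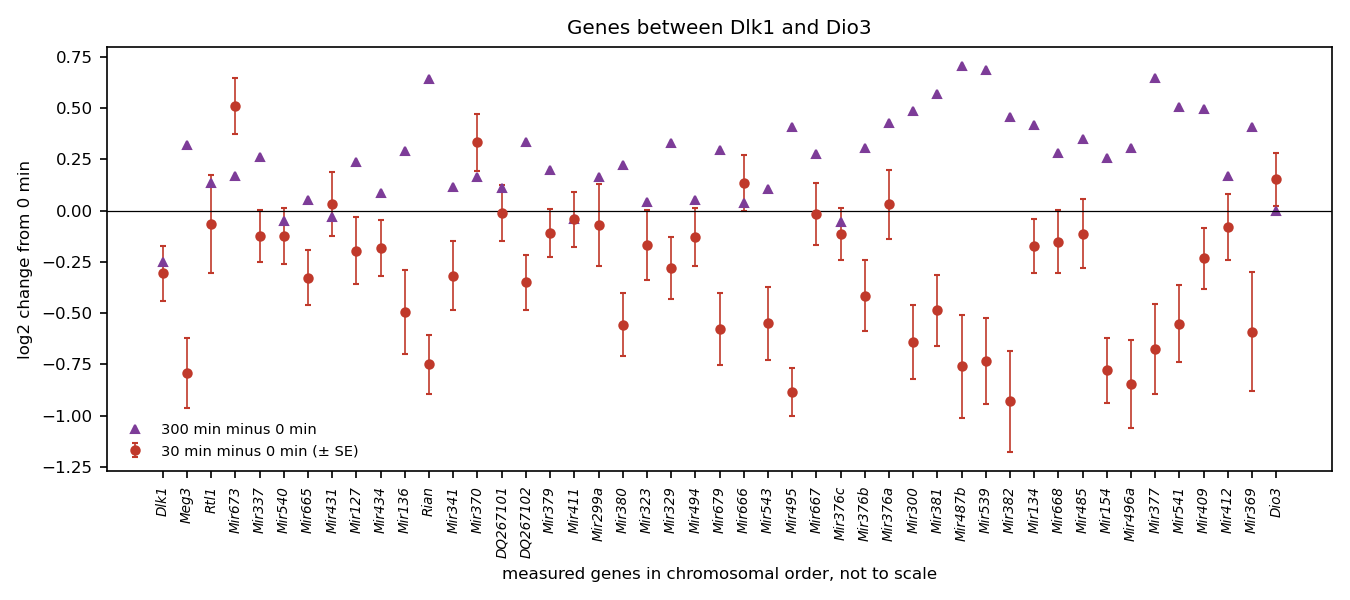
Log2 change from 0 to 30 min with its SE (circles) and from 0 to 300 min (triangles) for 47 measured genes from Dlk1 to Dio3 in chromosomal order. At 30 min 41 of 47 lie below 0, and 16 of the 47 were called higher at 300 min than at 30 min.

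Of 14 measured genes of SR splicing factors and of Clk kinases, which phosphorylate them, 13 were below 0 (92.9%, against 49.8% of all genes), with a median of −0.15. An unadjusted p under 0.05 was found for 3 of them (21.4%, against 5.11% of all genes), and none was called. Since this list was chosen with earlier results of these data known, these shares are a description and no test. Clk4 had 6.26 and 6.17 at 30 min against 6.79 and 6.61 at 0 min (−0.49 ± 0.12, adjusted p = 0.521). Srsf5 had 7.78 and 7.98 at 30 min against 8.25 and 8.48 at 0 min (−0.49 ± 0.13). Luc7l3, a gene of a splicing factor that joins the U1 particle, was among the 8 genes next past the threshold on the lower side, with 7.72 and 7.74 against 8.21 and 8.37 (−0.57 ± 0.12, adjusted p = 0.204), and passed with the trend and robust options (0.0316). Of the remaining genes next past it, Zc3h7a on the lower side had a change of −0.56, and Fgl2 and Rbm15b on the higher side had changes of 0.79 and 0.53. Ifi203 and Mptx1 on the lower side and Tex29, Olfr344 and Olfr167 on the higher side lay under the background mark on all 4 arrays, and their changes are not given. Fgl2 passed when the 4 arrays alone were fitted (adjusted p = 0.0479).

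Genes listed here as delayed in the response, and those of the signalling machinery, held no call at 30 min. Of 24 measured delayed genes, such as neuropeptide and prohormone convertase genes, none was called, 1 had an unadjusted p under 0.05, 12 were above 0 and the median was 0.00. The smallest p among them was that of Rgs4, a brake on G protein signalling, at 10.07 and 10.02 at 30 min against 9.78 and 9.71 at 0 min (0.30 ± 0.12, adjusted p = 0.938). Pcsk1, a convertase gene, had 6.78 and 6.61 at 30 min against 6.95 and 6.93 at 0 min. Of these 24 delayed genes 11 were called higher at 180 min than at 30 min (45.8%, against 0.331% of all genes), Fezf2 and Pcsk1 among them. The delayed genes were listed with earlier results of these data known. This share and the lack of calls at 30 min are therefore a description and no test. None of 12 measured GABA-A receptor subunit genes, which encode the target of bicuculline, was called, with changes between −0.20 and 0.12. The same held for 15 genes of glutamate receptors and calcium channels, 13 of the calcium and MAP kinase cascade, 10 of regulators that bind AU-rich messages and 13 of heat shock and handling stress. The counts of genes with an unadjusted p under 0.05 in these 5 lists were 0, 1, 0, 0 and 0 in that order.

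The last question was whether the genes called at 30 min differed from that level at the later times. The changes of 30, 180 and 300 min against 0 min share the 0 min arrays, so the later arrays were tested against those of 30 min. The genes had been chosen on the same 30 min and 0 min arrays. In that test 13 of the 16 higher genes were lower at 180 min than at 30 min, and the same 13 were lower at 300 min. Of all genes 0.171% were called lower at 180 min and 0.181% at 300 min, and 0.502% and 0.818% were called in either direction. Fosb, Gadd45b and Mir212 were the others. Fosb stood 2.74, 2.50 and 2.53 above 0 min at 30, 180 and 300 min, and its later levels were not called different from 30 min (adjusted p = 0.788 and 0.834). Npas4 stood 3.88, 1.73 and 1.87 above 0 min, and its level at 180 min was called against 0 min as well (adjusted p = 7.76e-05). Arc stood 2.38, 0.03 and 0.26 above 0 min, and Btg2 1.85, 0.00 and 0.10. Egr1 stood at 1.32, −0.52 and −0.59 relative to 0 min at the 3 times, and its level at 180 and 300 min was not called different from 0 min (adjusted p = 0.132 and 0.103). Of the 16 higher genes 4 were called against 0 min at 180 min and 4 at 300 min. These were Npas4, Fosb, Fos and Nr4a1 at both times. Of all genes, 0.331% were called against 0 min at 180 min and 0.286% at 300 min, in either direction. Without either 30 min array, 9 of the 19 genes called at 30 min differed from it at 180 min, in place of 15.

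**Figure D5:**
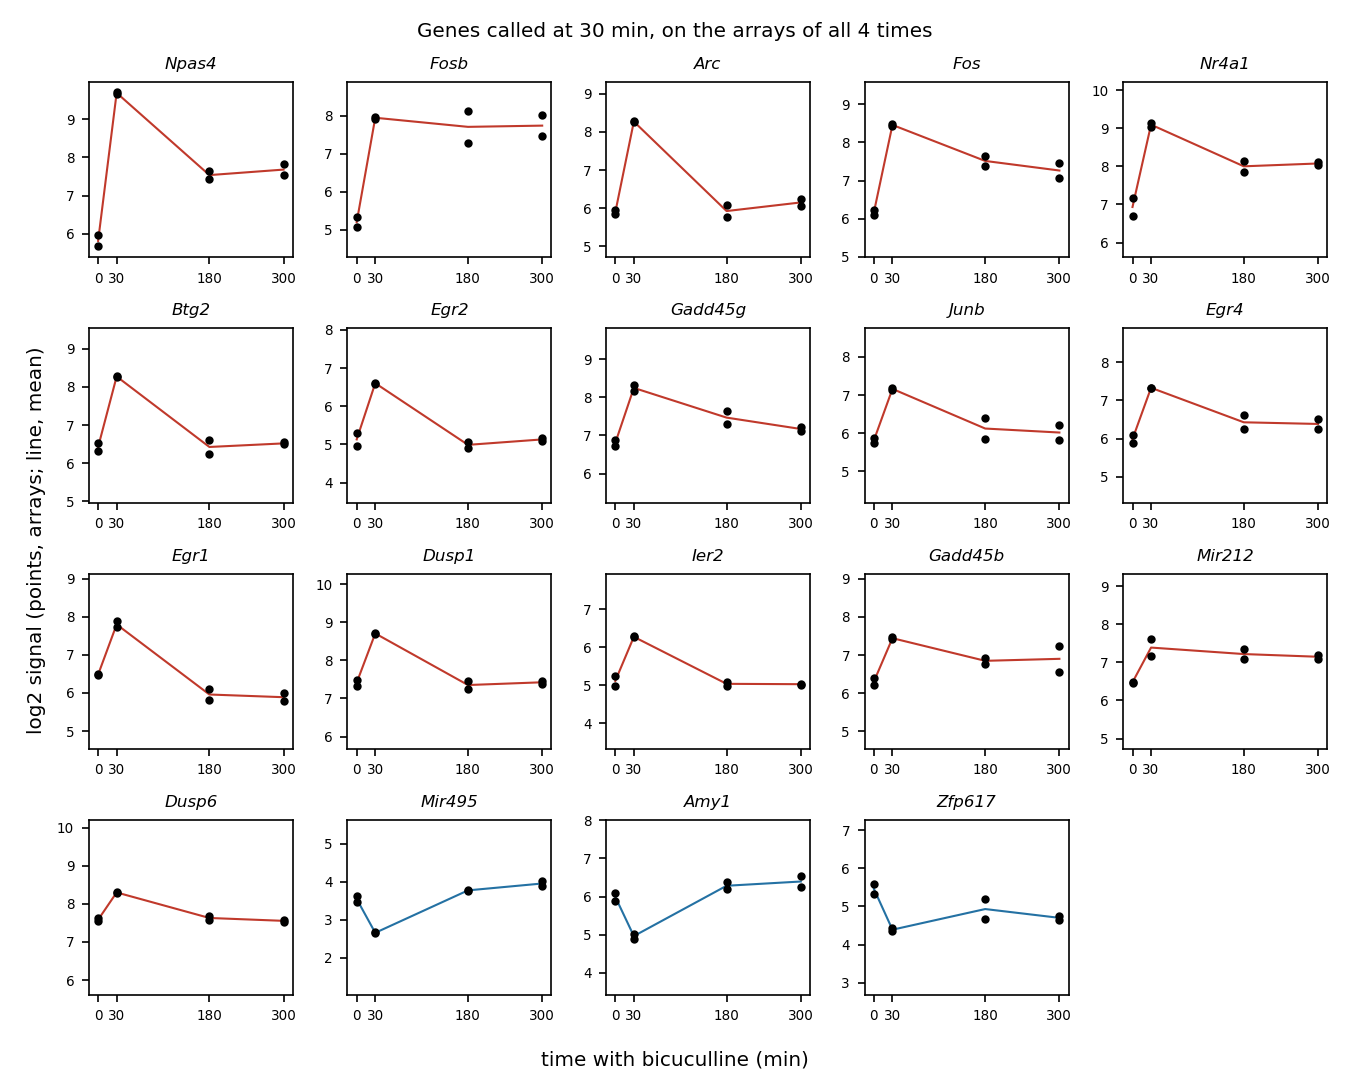
Log2 signal of each array (points) and mean (line) at 0, 30, 180 and 300 min for the 19 genes called at 30 min. Fosb stays near its 30 min signal, and Npas4, Fos and Nr4a1 lie between their 0 and 30 min signals later on. Amy1 and Mir495 lie above their 0 min means at 180 and 300 min, where neither was called against 0 min.

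Mir495 and Amy1 were higher at both later times than at 30 min. Relative to 0 min, Mir495 stood at −0.89, 0.23 and 0.41 at 30, 180 and 300 min, and Amy1 at −1.03, 0.29 and 0.40. Neither was called against 0 min at 180 or 300 min. The limma adjusted p was 0.448 and 0.240 for Mir495 and 0.400 and 0.354 for Amy1. Zfp617 stood at −1.07, −0.53 and −0.76, and its later levels were not called different from 30 min (adjusted p = 0.212 and 0.538). From Dlk1 to Dio3, 16 of 47 genes were called higher at 300 min than at 30 min (34.0%, against 0.637% of all genes). Of the microRNA genes there 13 of 40 were, against 3 of the 257 other microRNA genes. The mean signal of 21 of the 40 was not above the background mark. Of the 13, Mir380, Mir495, Mir300, Mir381, Mir154, Mir496a, Mir541 and Mir409 belong to these. Mir679, Mir487b, Mir539, Mir382 and Mir377 lay above the mark. The interval was looked at after earlier results of these data, so the counts are a description. Meg3 stood at −0.79 at 30 min and 0.32 at 300 min relative to 0 min, and Rian at −0.75 and 0.64. At 300 min neither was called against 0 min (limma adjusted p = 0.619 and 0.103). Clk4 stood at −0.49 and 0.64, and its level at 300 min was called higher than that at 30 min (adjusted p = 0.000388). That level was not called different from 0 min (limma adjusted p = 0.0516).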

How the data were processed

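RNA of 8 cultures was measured on 1 array each, at 4 times with 2 replicates a time. The deposited values are 1 log2 signal per transcript cluster and array. The base of the log was taken from their range (1.22 to 14.96), and the authors' background correction, probe summary, normalization and software are not given in the sources used here. Incomplete background removal would shrink the changes of dim genes. No further normalization was applied.

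Of the 35399 rows, 1621 had several gene symbols and 11989 none. For 999 genes with several clusters the one with the highest mean was used, and 19856 of 19938 genes matched the RefSeq table of GRCm38.p6. Groups came from the labels. limma 3.58.1 in R 4.3.3 was run with lmFit and eBayes at default settings, with 4 residual and 10.1 prior degrees of freedom, two-sided, and was tested on simulated data. SE is the moderated standard error.

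The members and gene lists (289 of 332 entries of 22 lists were measured) were chosen with earlier results of these data known, so lists are described by counts and medians without set tests. Named are all called genes, the 8 nearest past the threshold each way without predicted loci, and of each list the called members and up to 4 others of smallest p, or all members of small families. Deviations of same-numbered arrays correlated at −0.094 to 0.092 between times, so no strong shared deviation was seen. These values cannot tell whether same-numbered arrays came from the same dissection. Alternatives were the scaling, the arrays in the fit, the eBayes options, the rows tested, dim genes, each array left out and the replicate number as a block.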

Additional observations from a re-analysis of the deposited data

Results flagged for a closer look

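A test of the difference between the 30 min and a later change, which is the contrast of the later with the 30 min arrays, passed in limma for 15 of the 19 genes called at 30 min and for 8 of the 16 genes next past the threshold. Of all genes, 0.502% were called between 30 and 180 min and 0.818% between 30 and 300 min. The 19 called genes and the 16 next genes had all been chosen on the same 30 min arrays. The counts are therefore a description. The log2 change from 30 to 300 min was negative for 13 of the 15. It was −2.12 for Arc (adjusted p = 1.90e-06), −2.01 for Npas4 (5.22e-06), −1.91 for Egr1, −1.75 for Btg2, −1.47 for Egr2, −1.28 for Dusp1 and −1.24 for Ier2. It was −1.19 for Fos, −1.14 for Junb, −1.08 for Gadd45g, −1.02 for Nr4a1, −0.95 for Egr4 and −0.74 for Dusp6 (adjusted p = 0.00557). For the lower genes it was 1.43 for Amy1 (0.000139) and 1.29 for Mir495 (7.78e-05), whose signals lie under the background mark of 4.47.

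Among genes not called at 30 min, the change from 30 to 300 min was −0.92 for Klf4 (adjusted p = 0.00803) and −0.87 for Jun (0.00176). Tob1 changed by −0.60 from 30 to 180 min (0.0429). The change from 30 to 300 min was 1.39 for Rian (0.000204), 1.11 for Meg3 (0.00535), 1.04 for Mir154 (0.00535, its 30 min signals under the background mark), 0.90 for Luc7l3 (0.00164) and 0.86 for Rnpc3 (0.0167).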

How the results depend on the processing

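The count of genes higher at 30 min was 16 and ranged from 11 to 17 over the alternatives that did not leave out a single array, and from 12 to 20 when 1 array was left out. The count of lower genes was 3. It was 0 with every row tested, which adjusts over 35399 rows and also estimates the variance prior from them (3.72 prior degrees of freedom, against 10.1 from the genes). With the adjustment over every row but the prior of the genes, an alternative chosen after seeing the data, the counts were 17 higher and 3 lower. The lower count ranged from 0 to 5 when 1 array was left out. Of the 19 called genes 15 differed at 180 min and 15 at 300 min from 30 min, with ranges of 9 to 15 and 11 to 16 when 1 array was left out. With the replicate number as a block the counts were 16 higher and 3 lower, and 15 and 15 for the later times. Whether the replicate numbers pair the samples is not known. Of the 19 genes, 11 kept the call under all 16 alternatives run gene by gene and 12 whenever 1 array was left out, and 0 changed direction. Egr4 lost it only with every row tested (adjusted p = 0.113). Of 42 named genes that were not called, 3 changed sign when 1 array was left out: Nab2 ranged from −0.12 to 0.22, Gadd45a from −0.518 to 0.0403 and Arnt2 from −0.0205 to 0.0589. The causes of the other differences were not tested. The later contrasts could not be fitted with the 0 and 30 min arrays alone. Mir495 was not tested with dim genes left out. Changes of genes near the background mark, such as Mir495 and Zfp617, are limited by it, and 2 arrays a time limit all values.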

Other observations

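Of 11989 rows with no gene symbol, 2 were called lower at 30 min when every row was tested and 0 higher, by limma over all rows, and 7.77% had an unadjusted p under 0.05, against 3.43% of the rows with 1 symbol. These 2 rows changed by −1.28 and −1.20 on the log2 scale (adjusted p = 0.0222 and 0.0456). Both lay under the background mark of 4.47 at 30 min, with signals of 3.30 and 3.26 at 30 min against 4.49 and 4.63 at 0 min for the first, and 3.30 and 3.35 at 30 min against 4.40 and 4.66 at 0 min for the second. They are not named here because the annotation used gives them no gene.

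By class of gene in RefSeq, 15 of the 16 higher genes and 2 of the 3 lower genes are protein-coding, and the others are microRNA genes. Of all 19938 genes tested, 18556 are protein-coding and 297 are microRNA genes. Of 675 long noncoding RNA genes 0 were called at 30 min, by limma over all genes, against 0.0953% of all genes. Their median change was 0.04, against 0.00 for the protein-coding genes.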
